A study of Arabidopsis with 12 samples.

Results

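Arabidopsis thaliana seedlings carrying the mac3a3b double mutation were compared with wild-type (WT) seedlings by RNA sequencing 3 days after heat. The comparison takes 6 of the 12 libraries of the study, 3 from mac3a3b plants and 3 from WT plants, and covers all genes of the deposited table; the other 6 libraries are 3 mac3a3b and 3 WT controls, used below where a difference at 3 days is set beside the one in controls. All plants were grown on half-strength MS medium with 1.2% sucrose, and the heat treatment was at 37 °C. The labels state no allele, plant age or length of heat treatment, and they do not say whether the controls were sampled before heat or kept unheated to the same age. The labels do not say whether the 3 libraries of a group came from separate cultures, so p-values measure only the spread between these libraries, which may be technical.

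MAC3A and MAC3B are a closely related pair of U-box proteins of the MOS4-associated complex, the plant counterpart of the Prp19 complex of yeast and animals, which joins the spliceosome as it is activated. In Arabidopsis the complex is known for its part in pre-mRNA splicing, in the making of microRNAs and in immunity. Heat itself sets off a transient wave of chaperone synthesis, and misfolded proteins in the endoplasmic reticulum (ER) set off a separate one, the unfolded protein response.

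Expression is given in TPM, which counts the transcripts of a gene per fixed number of transcripts in the library and so is a share of each library corrected for transcript length. The deposited values carry no read counts, so sequencing depth is unknown and no counting error can be given. Both targeted genes were lower in the mutant. MAC3A was at 5.6, 6.81 and 5.95 TPM in the mutant, against 59.5, 61.5 and 60.1 TPM in WT (log2 difference -3.11 ± 0.066 (SE), adjusted p = 8.37e-12; -2.59 after rescaling). MAC3B was at 9.74, 8.77 and 9.81 TPM in the mutant, against 128, 137 and 135 TPM in WT (log2 difference -3.69 ± 0.055 (SE), adjusted p = 1.91e-12; -3.15 after rescaling). The mutant and WT libraries did not overlap for either gene, and neither gene was at 0 in the mutant.

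The mutant and WT libraries at 3 days differed in their whole make-up, so log2 differences, counts of calls and summed levels at 3 days are given on a second scale beside the deposited one. Ribosomal RNA loci took 3.54 to 4.11% of TPM in the mutant libraries and 1.29 to 1.42% in the WT libraries, and AT3G06365, annotated as a miscellaneous RNA, took a further 2.23 to 2.91% in the mutant libraries and 0.481 to 0.548% in the WT libraries. The libraries were made from oligo(dT)-selected RNA. Fewer genes reached 1 TPM in the mutant, 18310 to 18713 a library, than in WT, 20963 to 21139 a library. Genes between 10 and 100 TPM held 27.5 to 28.3% of TPM in the mutant libraries against 36.2 to 36.4% in the WT libraries, and genes between 100 and 1000 TPM held 49.5 to 50.5% in the mutant libraries against 44.2 to 45.1% in the WT libraries. The median log2 difference of the 22462 tested genes was -0.51 as deposited and -0.48 once ribosomal RNA loci were left out, so those loci moved it little. Median-of-ratios scaling, called rescaled here, set the median gene to -0.073. Means are given ± SD over the 3 libraries of a group. Library against library, Pearson correlations of log2 values were 0.985 to 0.988 within the mutant and 0.982 to 0.984 within WT.

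**Figure D1:**
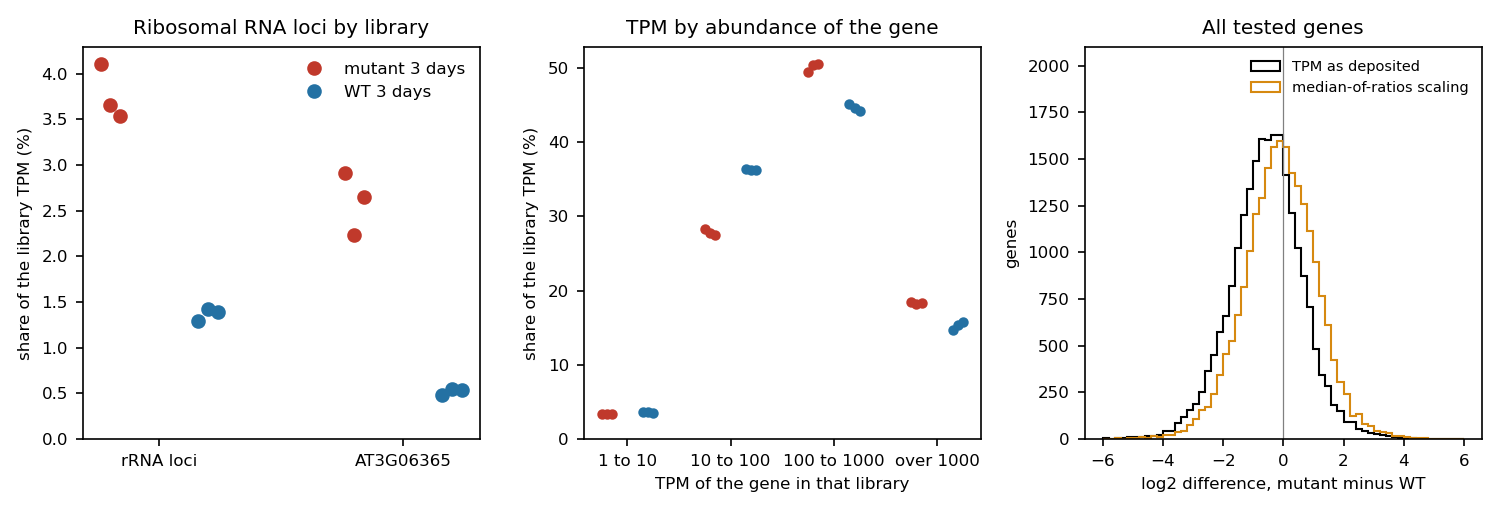
Left, the share of each library's TPM (%) from ribosomal RNA loci and from AT3G06365; middle, the share (%) held by genes in each range of TPM; one point per library, mutant left of WT. Right, the number of tested genes by log2 difference (mutant minus WT, ends pooled at 6), as deposited and after median-of-ratios scaling: the median lies at -0.51 as deposited and at -0.073 after scaling.

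Most genes differed between the genotypes. Using limma on log2(TPM + 1), which understates differences of low genes, with Benjamini-Hochberg adjustment at 0.05, 5403 genes were higher in the mutant (24.1% of those tested) and 13185 were lower (58.7%). Of these, 1820 (8.1%) were higher and 7349 (32.7%) lower by at least 2-fold. After rescaling the split was 8612 higher (38.3%) and 9563 lower (42.6%). Each count of list members below is to be read beside these shares. All 5403 genes called higher as deposited were also called higher after rescaling, and 9563 were called lower on both scales, while 924 were called lower as deposited and higher after rescaling. Rescaling raises mutant values and lowers WT values at 3 days, so it moves log2 differences upward. That deposited increases and rescaled decreases were called on both scales is therefore largely built in and is no separate result. Genes at least 2-fold apart after rescaling numbered 3841 higher (17.1%) and 4692 lower (20.9%). Quantile normalization gave 9050 higher (40.3%) and 8468 lower (37.7%), and percentile ranks within a library gave 8813 higher (39.2%) and 8220 lower (36.6%). The libraries of the genotypes did not overlap for 82.9% of genes as deposited and 81.5% after rescaling, so a member of a list that did not overlap is no result in itself. In controls 6803 genes (30.3%) were higher and 4313 (19.2%) lower in the mutant than in WT, 575 (2.56%) and 692 (3.08%) by at least 2-fold. The difference at 3 days differed from that in controls for 17277 genes (76.9%) by the interaction term of the same fit, and for 16752 after rescaling.

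The largest increases among genes with a symbol included a pair of F-box genes, a NAC factor and an m6A reader. AATP1, an AAA-type ATPase, was at 178, 126 and 128 TPM in the mutant, against 2.29, 2.27 and 2.36 TPM in WT (log2 difference 5.44 ± 0.13 (SE), adjusted p = 1.53e-11; 5.88 after rescaling). Its mean position among all genes of a library was percentile 93.6 in the mutant and 16.1 in WT, and in controls it was at 0.747 TPM in the mutant and 0.383 TPM in WT. Of the F-box type phloem protein genes among them, PP2-B11 was at 215, 239 and 233 TPM in the mutant, against 9.26, 9.04 and 8.03 TPM in WT (log2 difference 4.56 as deposited and 5.08 rescaled) and PP2-B1 at 299, 278 and 301 TPM in the mutant, against 22.3, 21.4 and 19.6 TPM in WT (log2 difference 3.74 as deposited and 4.27 rescaled). NAC074, a NAC transcription factor gene, averaged 52.7 ± 1.42 TPM in the mutant and 1.59 ± 0.225 TPM in WT (rescaled log2 difference 4.78). ECT10, of the family whose YTH domain binds N6-methyladenosine in RNA, averaged 36.6 ± 2.53 TPM in the mutant and 1.22 ± 0.2996 TPM in WT (rescaled log2 difference 4.47). The cytochrome P450 gene CYP71A23 was at 21.2, 23.9 and 25.7 TPM in the mutant, against 0.42, 0.37 and 0.35 TPM in WT (log2 difference 4.15 as deposited and 4.44 rescaled). SK8, an SKP1-like gene, averaged 12.2 TPM in the mutant and was listed at 0 in all 3 WT libraries, so no fold is given. The rule that chose these genes required that the 3 and 3 libraries not overlap.

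The largest decreases among genes with a symbol included germin-like genes, a glutathione S-transferase and genes of glucosinolate synthesis. GER3, a germin-like wall protein gene, was at 0.77, 0.48 and 0.57 TPM in the mutant, against 97.6, 101 and 111 TPM in WT (log2 difference -6.02 ± 0.10 (SE), adjusted p = 2.32e-12; -5.59 after rescaling). Its mean position was percentile 14.5 in the mutant and 91.7 in WT, and in controls it was at 194 TPM in the mutant and 458 TPM in WT. GSTU20, a glutathione S-transferase gene, was at 0.72, 0.4 and 0.62 TPM in the mutant, against 97.7, 89.5 and 99.1 TPM in WT (log2 difference -5.94 as deposited and -5.51 rescaled), while in controls it was at 668 TPM in the mutant and 536 TPM in WT. IPMI1, an isopropylmalate isomerase subunit of methionine chain elongation, averaged 0.0367 TPM in the mutant and 42.98 TPM in WT (rescaled log2 difference -5.06). CYP81F4, which modifies indole glucosinolates, averaged 0.253 TPM in the mutant and 49.5 TPM in WT (rescaled log2 difference -4.93). TLL1, annotated as the triacylglycerol lipase OBL1, averaged 4.15 TPM in the mutant and 194 TPM in WT (rescaled log2 difference -4.76). PME5, a pectin methylesterase, averaged 0.127 TPM in the mutant and 34.7 TPM in WT (rescaled log2 difference -4.61), and the germin-like gene GER1 averaged 4.297 TPM in the mutant and 163 TPM in WT (rescaled log2 difference -4.44). UGT72E2, a glycosyltransferase of monolignols, averaged 0.293 TPM in the mutant and 41.1 TPM in WT (rescaled log2 difference -4.63), and the gibberellin-regulated GASA6 averaged 1.19 TPM in the mutant and 59.1 TPM in WT (rescaled log2 difference -4.35). By the same rule, all 3 mutant libraries lay below all 3 WT libraries.

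**Figure D2:**
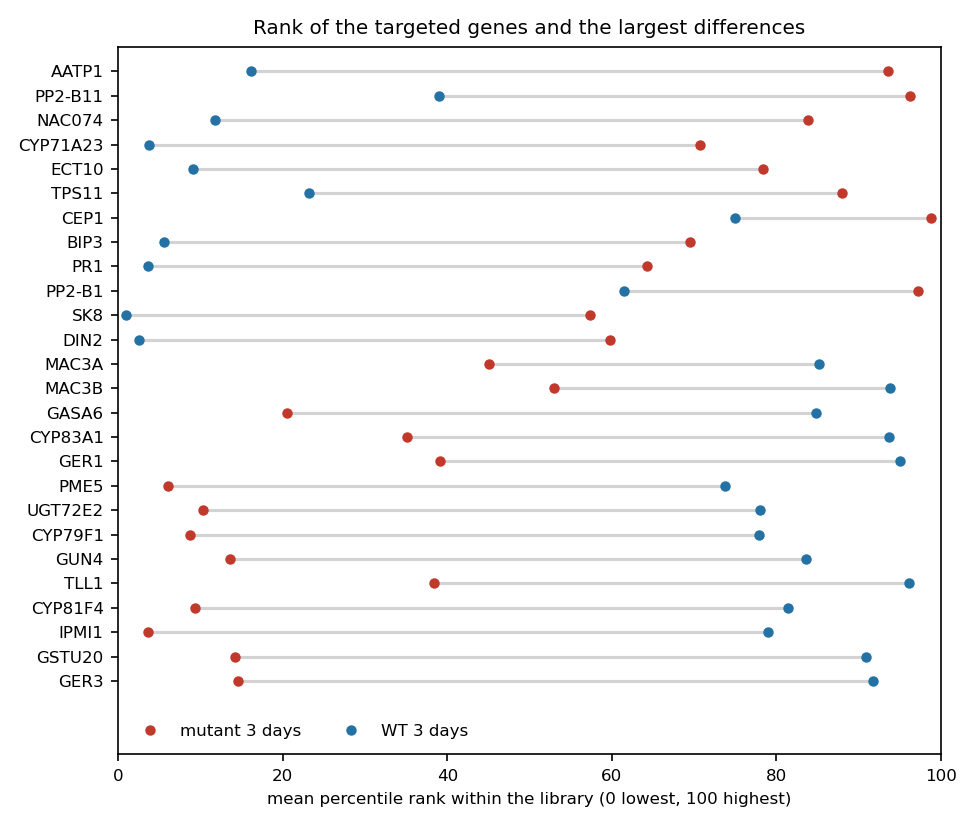
Mean percentile rank within a library (0 lowest, 100 highest, n = 3) of the targeted genes and of the 12 largest increases and decreases, ordered by log2 difference, for mutant and WT at 3 days. Rank does not depend on how a library is scaled; AATP1 stands at percentile 93.6 in the mutant and 16.1 in WT, and GER3 at percentile 14.5 in the mutant and 91.7 in WT.

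Among the genes with most TPM at 3 days, the small GTPase genes of nuclear transport stood far apart. RAN-1 was at 2463, 2708 and 2700.2 TPM in the mutant, against 316, 305 and 291 TPM in WT (log2 difference 3.10 ± 0.049 (SE), adjusted p = 1.91e-12; 3.66 after rescaling), and RAN2 at 2385, 2522 and 2499 TPM in the mutant, against 406, 407 and 395 TPM in WT (log2 difference 2.61 as deposited and 3.17 rescaled). In controls RAN-1 was at 238 TPM in the mutant and 189 TPM in WT. The highest symbol in the mutant was HSP70-4, a cytosolic Hsp70, at 3028, 3347 and 3359.7 TPM in the mutant, against 1587, 1544 and 1543 TPM in WT (log2 difference 1.06 as deposited and 1.61 rescaled). The highest in WT was TCTP, the translationally controlled tumor protein, at 2954, 2843 and 2785 TPM in the mutant, against 5891, 6224 and 5854 TPM in WT (log2 difference -1.07 as deposited and -0.51 rescaled). GASA1, of the gibberellin-regulated family, averaged 1278 ± 52.6 TPM in the mutant and 4729 ± 711 TPM in WT (rescaled log2 difference -1.32), and the lipid transfer protein gene LTP2 averaged 951 ± 99.2 TPM in the mutant and 2948 ± 275 TPM in WT (rescaled log2 difference -1.07). By percentile rank HSP70-4, TCTP, GASA1 and LTP2 were no longer called. Rank has little room to move among the most abundant genes: HSP70-4 moved by 0.12 and TCTP by -0.031 percentile points. PSBR, a photosystem II subunit, averaged 2781 ± 119 TPM in the mutant and 2851 ± 285 TPM in WT (rescaled log2 difference 0.53) and did not pass the test as deposited (log2 difference -0.032). The Rubisco small subunit gene RBCS3B, at 2324 TPM in the mutant and 2079 TPM in WT (rescaled log2 difference 0.72), did not pass as deposited and passed after rescaling.

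The listed ER folding genes were higher in the mutant almost throughout, whichever scale was used. Among the list for the ER unfolded protein response, 18 of 20 tested members were higher and 1 lower as deposited (median log2 difference 1.71). After rescaling, 19 were higher and 1 lower (median 2.27). All genes together had 24.1% higher and 58.7% lower as deposited, and 38.3% and 42.6% rescaled. The wider annotated set for protein processing in the ER was split. Of its 339 tested members (374 listed), 160 were higher and 128 lower as deposited (median log2 difference 0.11). Rescaled, 218 of them were higher and 80 lower (median 0.64). The summed level of the list was 9856 to 11547 TPM over the 3 mutant libraries and 2492 to 2668 TPM over the 3 WT libraries (rescaled sums 12623 ± 1432 in the mutant and 1998 ± 62.7 in WT). BIP2, an Hsp70 of the ER lumen, was at 1907, 2344 and 2333 TPM in the mutant, against 239, 207 and 209.7 TPM in WT (log2 difference 3.32 ± 0.089 (SE), adjusted p = 3.08e-11; 3.87 after rescaling). BIP1 averaged 1634 ± 170.1 TPM in the mutant and 324 ± 13.9 TPM in WT (rescaled log2 difference 2.88), and BIP3, the stress-induced copy, was at 16.2, 27.4 and 24.9 TPM in the mutant, against 0.8, 0.8 and 0.51 TPM in WT (log2 difference 3.78 as deposited and 4.11 rescaled). BIP1 and BIP2 are near-identical copies, so reads may be split between them uncertainly. CNX1, a calnexin that holds folding glycoproteins, averaged 1678 ± 195 TPM in the mutant and 305 ± 12.8 TPM in WT (rescaled log2 difference 3.01), and SHD, the ER Hsp90, averaged 1550.2 ± 121 TPM in the mutant and 318 ± 12.6 TPM in WT (rescaled log2 difference 2.84). The co-chaperone ERDJ3A was at 423, 464 and 468 TPM in the mutant, against 57.3, 49.5 and 50.7 TPM in WT (log2 difference 3.08 as deposited and 3.63 rescaled), and the disulfide isomerase PDIL1-1 averaged 516 ± 46.9 TPM in the mutant and 104 ± 3.05 TPM in WT (rescaled log2 difference 2.84). Of the sensors and factors, BZIP28, released from the ER membrane under stress, averaged 299 ± 7.65 TPM in the mutant and 62.1 ± 2.24 TPM in WT (rescaled log2 difference 2.80), BZIP60 averaged 131 ± 9.86 TPM in the mutant and 54.2 ± 2.53 TPM in WT (rescaled log2 difference 1.81), and IRE1B, the kinase and RNase that splices BZIP60 mRNA, averaged 13.5 ± 0.698 TPM in the mutant and 14.4 ± 0.695 TPM in WT (rescaled log2 difference 0.43) and did not pass the test as deposited. CRT3, a calreticulin, was the member lower in the mutant, at 35.05 TPM in the mutant and 75.4 TPM in WT (rescaled log2 difference -0.54).

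Most large chaperones were also higher in the mutant, while HSP90.5 and CLPB3, of the plastid, were lower. Among the list of large chaperones and co-chaperones, 18 of 26 tested members were higher and 7 lower as deposited (median log2 difference 0.69). After rescaling, 21 were higher and 5 lower (median 1.25). Of the 26, 1 met the minimum of 1 TPM in 3 libraries only through the mutant libraries at 3 days, which bears on its direction. Shares of all tested genes were 24.1% higher and 58.7% lower as deposited, and 38.3% and 42.6% rescaled. HSP90.2 was at 1367, 1515 and 1508 TPM in the mutant, against 499, 456 and 423 TPM in WT (log2 difference 1.67 as deposited and 2.23 rescaled), and HSP70-3 averaged 1239 ± 51.8 TPM in the mutant and 402 ± 9.15 TPM in WT (rescaled log2 difference 2.18). HSP101, the disaggregase needed for acquired heat tolerance, was at 236, 275 and 279.9 TPM in the mutant, against 119, 107 and 106 TPM in WT (log2 difference 1.24 as deposited and 1.80 rescaled). HSP90.1, the heat-induced cytosolic Hsp90, was at 1543, 1804 and 1782 TPM in the mutant, against 791, 778 and 752 TPM in WT (log2 difference 1.14 as deposited and 1.70 rescaled), a call lost by percentile rank. Against these, the plastid Hsp90 HSP90.5 was at 113, 128 and 129.7 TPM in the mutant, against 707, 769 and 842 TPM in WT (log2 difference -2.64 ± 0.076 (SE), adjusted p = 4.77e-11; -2.08 after rescaling), and the plastid disaggregase CLPB3 averaged 71.4 ± 2.603 TPM in the mutant and 173 ± 10.1 TPM in WT (rescaled log2 difference -0.71). ROF2, an FK506-binding co-chaperone of heat memory, averaged 526 ± 50.6 TPM in the mutant and 1299 ± 21.1 TPM in WT (rescaled log2 difference -0.75), a call lost by percentile rank, and HSA32, required for long-term acquired tolerance, averaged 74.5 ± 3.34 TPM in the mutant and 135 ± 5.18 TPM in WT (rescaled log2 difference -0.29).

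Small heat shock proteins, which hold unfolded proteins without ATP, divided. Among the list, 4 of 18 tested members were higher and 11 lower as deposited (median log2 difference -0.60). After rescaling, 6 were higher and 8 lower (median -0.042). Both splits lay near those of all tested genes, 24.1% higher and 58.7% lower as deposited, and 38.3% and 42.6% rescaled. The median of the list stayed below 0 under every scaling. HSP21, of the plastid, was at 334, 474 and 522 TPM in the mutant, against 1342, 1721 and 1824 TPM in WT (log2 difference -1.89 as deposited and -1.33 rescaled). The mitochondrial HSP23.6 averaged 313 ± 16.7 TPM in the mutant and 740.1 ± 26.8 TPM in WT (rescaled log2 difference -0.68), and the cytosolic HSP17.6II averaged 562 ± 40.2 TPM in the mutant and 1681 ± 168 TPM in WT (rescaled log2 difference -1.02). HSP15.4 averaged 8.197 TPM in the mutant and 35.7 TPM in WT (rescaled log2 difference -1.47). HSP26.5 averaged 66.5 ± 3.77 TPM in the mutant and 32.6 ± 2.23 TPM in WT (rescaled log2 difference 1.55) and HSP17.8 averaged 945 ± 60.3 TPM in the mutant and 599 ± 55.3 TPM in WT (rescaled log2 difference 1.22), both higher in the mutant. By percentile rank HSP21, HSP23.6, HSP17.6II and HSP17.8 were no longer called. The list stood near the top of the libraries, at a median percentile of 98.0 in the mutant and 98.9 in WT. Rank has little room to move there, and HSP21 moved by -1.47 percentile points. HSP17.6B averaged 1718 ± 77.3 TPM in the mutant and 2435 ± 131 TPM in WT (rescaled log2 difference 0.056), lower as deposited with a sign that turned after rescaling. Among the heat shock transcription factors, 7 of 18 tested members (21 listed) were higher and 7 lower as deposited (median log2 difference 0.19). After rescaling, 12 were higher and 2 lower (median 0.63). HSFA4A averaged 35.96 ± 1.47 TPM in the mutant and 22.6 ± 0.567 TPM in WT (rescaled log2 difference 1.18), and HSFB4 averaged 1.84 TPM in the mutant and 7.67 TPM in WT (rescaled log2 difference -1.17).

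**Figure D3:**
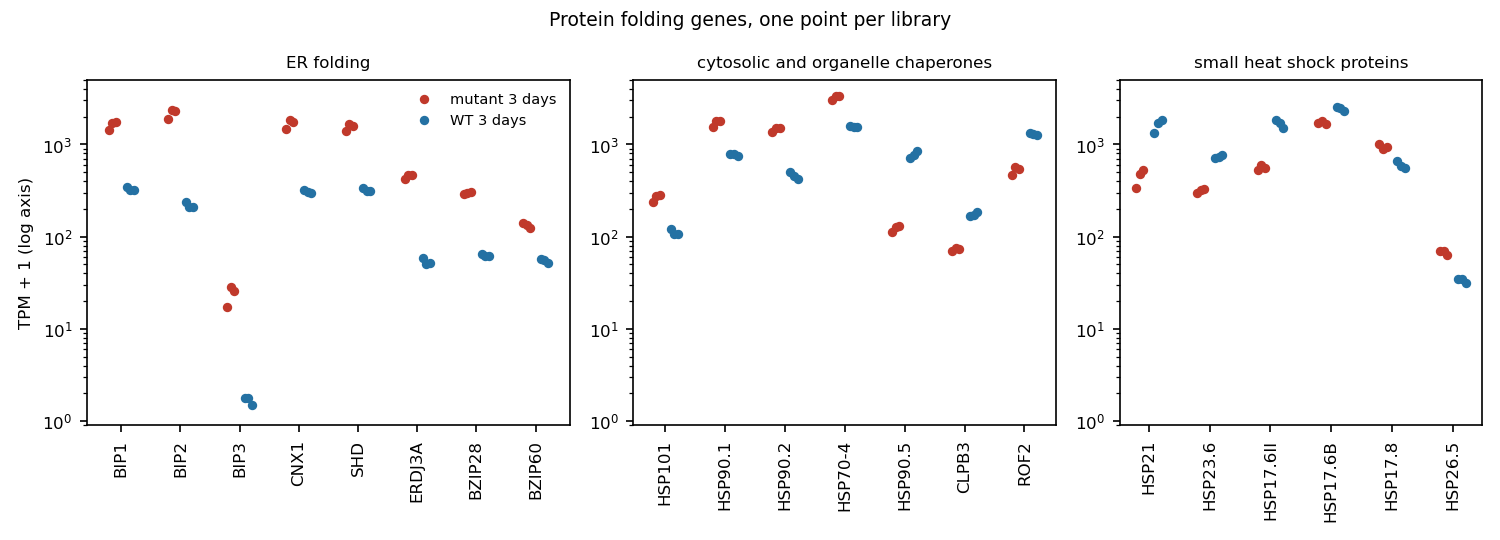
TPM + 1 (log axis) of protein folding genes at 3 days, one point per library, mutant left of WT. ER genes such as BIP2 and ERDJ3A lie higher in all 3 mutant libraries, while HSP90.5, CLPB3, HSP21 and HSP23.6 lie lower.

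Subunits of the proteasome and the listed core autophagy genes were mostly higher in the mutant. Of all tested genes, 24.1% were higher and 58.7% lower as deposited, and 38.3% and 42.6% rescaled. Among the subunits of the 26S proteasome, 43 of 53 tested members (56 listed) were higher and 7 lower as deposited (median log2 difference 0.85). After rescaling, 48 were higher and 4 lower (median 1.41). Among the autophagy genes, 12 of 13 tested members were higher and 0 lower as deposited (median log2 difference 1.08). After rescaling, 13 were higher and 0 lower (median 1.63). ATG8D, one of the ubiquitin-like proteins that coat the autophagosome, was at 592, 542 and 613 TPM in the mutant, against 119, 109 and 105 TPM in WT (log2 difference 2.38 ± 0.086 (SE), adjusted p = 2.49e-10; 2.93 after rescaling). NBR1, the receptor that brings ubiquitinated aggregates to ATG8, was at 635, 604 and 644 TPM in the mutant, against 218, 206 and 205 TPM in WT (log2 difference 1.58 as deposited and 2.13 rescaled). ATG7, the activating enzyme of ATG8, averaged 24.3 ± 0.916 TPM in the mutant and 10.2 ± 1.52 TPM in WT (rescaled log2 difference 1.70), while ATG5 averaged 16.8 ± 0.385 TPM in the mutant and 18.4 ± 1.01 TPM in WT (rescaled log2 difference 0.41) and did not pass the test as deposited. The wider annotated sets, which both include the targeted MAC3B, were more evenly divided, with larger shares higher than among all genes. In the autophagy pathway 35 of 83 tested members (85 listed) were higher and 34 lower as deposited (median log2 difference -0.058). After rescaling, 54 were higher and 18 lower (median 0.49). In ubiquitin-mediated proteolysis 94 of 207 tested members (267 listed) were higher and 81 lower as deposited (median log2 difference 0.061). After rescaling, 134 were higher and 43 lower (median 0.60).

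Genes that mark developmental cell death were higher too, beside 24.1% of all tested genes as deposited and 38.3% rescaled. Among that list, 6 of 7 tested members were higher and 0 lower as deposited (median log2 difference 2.00). After rescaling, 7 were higher and 0 lower (median 2.54). CEP1, a papain-type protease with an ER retention signal that acts in dying cells, was at 439.6, 585 and 545 TPM in the mutant, against 44.8, 33.5 and 30.3 TPM in WT (log2 difference 3.83 ± 0.14 (SE), adjusted p = 3.06e-10; 4.37 after rescaling). In controls it averaged 2.66 TPM in the mutant and 1.95 TPM in WT. The metacaspase MC9 was at 149, 191 and 167 TPM in the mutant, against 51.7, 43.9 and 29.9 TPM in WT (log2 difference 2.02 as deposited and 2.56 rescaled), and the aspartic protease APA3 at 62.3, 67.2 and 67.6 TPM in the mutant, against 12.9, 12.1 and 9.12 TPM in WT (log2 difference 2.44 as deposited and 2.96 rescaled). RNS3, a secreted ribonuclease, averaged 102 ± 6.63 TPM in the mutant and 25.7 ± 7.89 TPM in WT (rescaled log2 difference 2.54). BFN1, a nuclease of senescing and dying cells, averaged 18.4 ± 1.14 TPM in the mutant and 17.98 ± 3.68 TPM in WT (rescaled log2 difference 0.58) and did not pass the test as deposited.

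MC9 and RNS3 are also used as markers of maturing xylem, and xylem markers went the other way. Among the xylem and phloem markers, 0 of 11 tested members were higher and 11 lower as deposited (median log2 difference -2.94). After rescaling, 0 were higher and 11 lower (median -2.52). Their summed level was 30.6 to 32.1 TPM over the 3 mutant libraries and 387 to 479 TPM over the 3 WT libraries (rescaled sums 35.9 ± 1.701 in the mutant and 347 ± 36.97 in WT). None of the 11 was at 0 in all libraries of either genotype. XCP2, a xylem cysteine protease, was at 8.21, 7.7 and 7.65 TPM in the mutant, against 259.9, 254 and 197 TPM in WT (log2 difference -4.74 ± 0.11 (SE), adjusted p = 1.46e-11; -4.20 after rescaling). LAC4, a laccase of lignin polymerization, was at 2.74, 2.1 and 1.61 TPM in the mutant, against 59.1, 58.01 and 51.6 TPM in WT (log2 difference -4.20 as deposited and -3.71 rescaled). Of the secondary wall cellulose synthases, IRX3 averaged 0.837 TPM in the mutant and 13.1 TPM in WT (rescaled log2 difference -2.52), and IRX1 averaged 0.64 TPM in the mutant and 11.7 TPM in WT (rescaled log2 difference -2.57). In whole seedlings, fewer cells of a type and less RNA per cell cannot be told apart, here and for every cell type below. Root markers summed to 47.3 to 64.2 TPM over the 3 mutant libraries and 198 to 279.9 TPM over the 3 WT libraries (rescaled sums 63.1 ± 10.1 in the mutant and 187 ± 30.7 in WT). Among them, 1 of 12 tested members (13 listed) was higher and 10 lower as deposited (median log2 difference -1.53). After rescaling, 1 was higher and 8 lower (median -1.13). The root marker called higher as deposited, IRT1, lost its call with a pseudocount of 5. Meristem and epidermis markers summed to 19.8 ± 1.12 TPM in the mutant and 92.6 ± 3.31 TPM in WT (rescaled sums 22.8 ± 0.889 in the mutant and 72.5 ± 2 in WT), and guard cell and stomatal lineage markers to 44.4 ± 0.867 TPM in the mutant and 69.6 ± 1.45 TPM in WT (rescaled sums 51.2 ± 2.44 in the mutant and 54.5 ± 1.27 in WT). Among the guard cell and stomatal lineage markers, 1 of 11 tested members was higher and 7 lower as deposited (median log2 difference -1.28). After rescaling, 4 were higher and 7 lower (median -0.90). Of all tested genes, 58.7% were lower as deposited and 42.6% rescaled. The part of any change in tissue make-up in the other results was not tested.

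**Figure D4:**
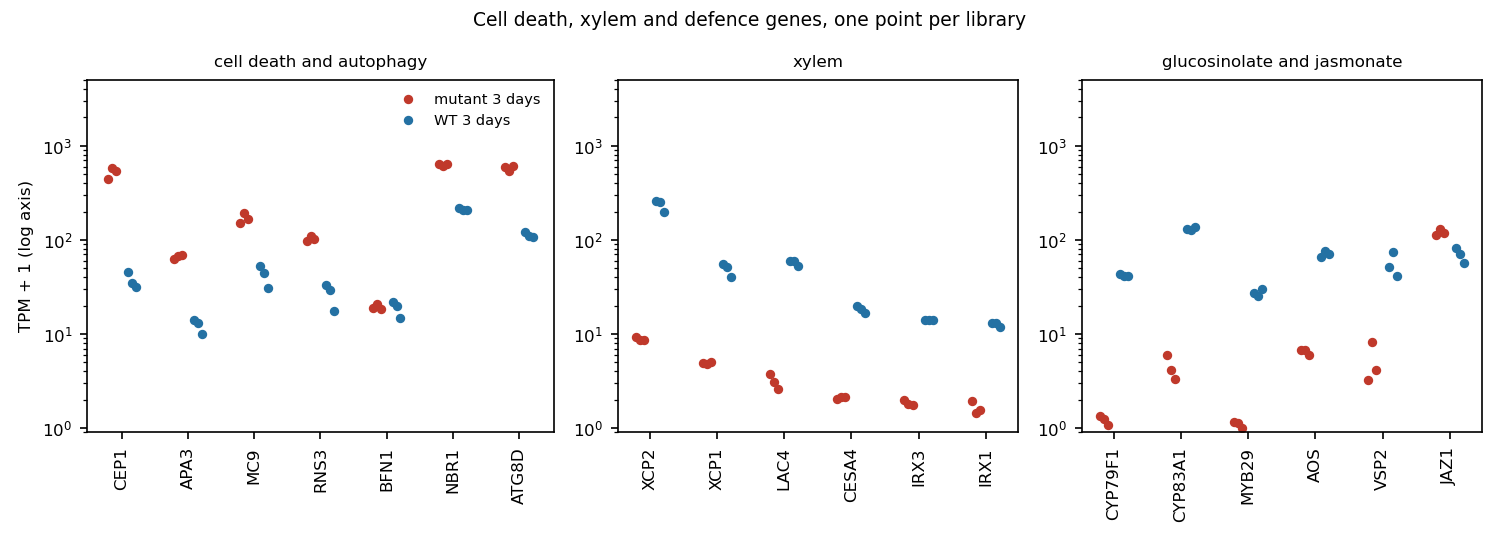
TPM + 1 (log axis) of genes of cell death and autophagy, of xylem, and of glucosinolate and jasmonate pathways at 3 days, one point per library, mutant left of WT. CEP1 and ATG8D lie higher in all 3 mutant libraries, the 6 xylem genes lie lower, and BFN1 overlaps between the genotypes.

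Glucosinolates are sulfur-rich defence compounds of the cabbage order, made from methionine or tryptophan and cleaved by myrosinases. Among their list, 0 of 22 tested members were higher and 20 lower as deposited (median log2 difference -2.55). After rescaling, 2 were higher and 18 lower (median -2.02). Of all genes, 58.7% were lower as deposited and 42.6% rescaled. CYP79F1, the first step of the methionine-derived core, was at 0.35, 0.26 and 0.08 TPM in the mutant, against 42.1, 40.1 and 40.04 TPM in WT (log2 difference -5.09 ± 0.079 (SE), adjusted p = 1.91e-12; -4.71 after rescaling). In controls it was higher in the mutant, at 144 TPM in the mutant and 54.8 TPM in WT. CYP83A1, the next step, was at 4.93, 3.13 and 2.3 TPM in the mutant, against 131, 127 and 135 TPM in WT (log2 difference -4.93 as deposited and -4.42 rescaled), and the regulator MYB29 was at 0.17, 0.12 and 0 TPM in the mutant, against 26.4, 24.3 and 28.7 TPM in WT (log2 difference -4.65 as deposited and -4.29 rescaled). In the tryptophan branch, CYP79B3 averaged 4.8 ± 0.406 TPM in the mutant and 28.5 ± 1.16 TPM in WT (rescaled log2 difference -1.84), CYP79B2 averaged 48.1 ± 4.59 TPM in the mutant and 87.2 ± 5.42 TPM in WT (rescaled log2 difference -0.30), and CYP83B1 averaged 114 ± 21.4 TPM in the mutant and 99.6 ± 4.03 TPM in WT (rescaled log2 difference 0.73) and did not pass the test as deposited. The myrosinase TGG1 averaged 92.7 ± 10.5 TPM in the mutant and 486 ± 14.73 TPM in WT (rescaled log2 difference -1.83).

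Most listed flavonoid and jasmonate genes were lower as well, beside 58.7% of all tested genes as deposited and 42.6% rescaled. Among the anthocyanin and flavonoid list, 0 of 22 tested members (24 listed) were higher and 21 lower as deposited (median log2 difference -2.03). After rescaling, 2 were higher and 20 lower (median -1.51). LDOX, a late enzyme of anthocyanin synthesis, averaged 0.31 TPM in the mutant and 12.3 TPM in WT (rescaled log2 difference -2.98), DFR averaged 0.05 TPM in the mutant and 8.35 TPM in WT (rescaled log2 difference -2.83), and the MYB activator PAP1 averaged 3.71 TPM in the mutant and 29.1 TPM in WT (rescaled log2 difference -2.26). Among the jasmonate genes, 2 of 17 tested members (19 listed) were higher and 12 lower as deposited (median log2 difference -1.39). After rescaling, 4 were higher and 12 lower (median -0.96). AOS, which commits lipid peroxides to jasmonate, was at 5.68, 5.72 and 4.96 TPM in the mutant, against 64.7, 74.5 and 69.5 TPM in WT (log2 difference -3.45 as deposited and -2.93 rescaled). The responsive gene VSP2 was at 2.23, 7.3 and 3.18 TPM in the mutant, against 50.7, 73.8 and 40.5 TPM in WT (log2 difference -3.50 as deposited and -2.99 rescaled). MYC2, the main activator, averaged 1.98 TPM in the mutant and 13.9 TPM in WT (rescaled log2 difference -1.85). JAZ1, a repressor of the pathway, was at 112, 130.3 and 116 TPM in the mutant, against 81.6, 69.8 and 55.97 TPM in WT (log2 difference 0.79 as deposited and 1.34 rescaled), higher in the mutant on both scales but not called by percentile rank.

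The salicylic acid list leaned the other way: 8 of 18 tested members (19 listed) were higher and 4 lower as deposited (median log2 difference 0.35). After rescaling, 12 were higher and 4 lower (median 0.87). All tested genes had 24.1% higher and 58.7% lower as deposited, and 38.3% and 42.6% rescaled. Of the 18, 2 met the minimum of 1 TPM in 3 libraries only through the mutant libraries at 3 days. Another 2 met it only through the WT libraries at 3 days. The filter bears on the direction of such members, so these counts are a description only. PR1, the usual marker of the pathway, was at 34.4, 10.2 and 13.7 TPM in the mutant, against 0.55, 0.25 and 0.26 TPM in WT (log2 difference 3.74 ± 0.32 (SE), adjusted p = 3.85e-07; 4.02 after rescaling), with 1 mutant library above the other 2. In contrast, PR2 averaged 0.103 TPM in the mutant and 1.62 TPM in WT (rescaled log2 difference -1.01), lower in the mutant but not called by percentile rank. PBS3, which conjugates isochorismate to glutamate, averaged 15.8 TPM in the mutant and 0.767 TPM in WT (rescaled log2 difference 3.57), and SARD1, an activator of salicylic acid synthesis, averaged 36.3 ± 3.82 TPM in the mutant and 5.85 ± 1.07 TPM in WT (rescaled log2 difference 2.95). NPR1, a receptor of salicylic acid, was at 22.01, 19.3 and 18.96 TPM in the mutant, against 22.2, 20.96 and 19.5 TPM in WT (log2 difference -0.053 as deposited and 0.48 rescaled), and PAD4, a lipase-like partner of EDS1, averaged 5.81 ± 2.05 TPM in the mutant and 6.42 ± 0.803 TPM in WT (rescaled log2 difference 0.31); neither passed the test as deposited, and both values changed sign after rescaling.

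Most listed photosynthesis genes were lower in the mutant as deposited, where 58.7% of all tested genes were lower; the share of all genes was 42.6% after rescaling. Among the antenna proteins, which bind chlorophyll around the photosystems, 1 of 18 tested members was higher and 16 lower as deposited (median log2 difference -2.32). After rescaling, 2 were higher and 12 lower (median -1.76). LHCB1.1 was at 11.7, 16.2 and 16.9 TPM in the mutant, against 354, 436 and 504 TPM in WT (log2 difference -4.76 ± 0.14 (SE), adjusted p = 4.96e-11; -4.22 after rescaling), and LHCB1.5 at 319.9, 349.9 and 406 TPM in the mutant, against 2699.9, 2877 and 3442 TPM in WT (log2 difference -3.06 as deposited and -2.51 rescaled). LHCA4, of photosystem I, averaged 75.2 ± 1.02 TPM in the mutant and 862 ± 103 TPM in WT (rescaled log2 difference -2.94), while LHCA2 averaged 554 ± 67.98 TPM in the mutant and 694 ± 104 TPM in WT (rescaled log2 difference 0.23), lower as deposited and with its sign turned, not called, after rescaling. Its deposited call was lost by percentile rank, without mutant replicate 1 and without WT replicate 3. The LHCB1 genes are near-identical, so reads may be split among them uncertainly. Among the photosystem and electron transport subunits, 0 of 29 tested members were higher and 24 lower as deposited (median log2 difference -1.10). After rescaling, 8 were higher and 17 lower (median -0.54). Among the genes of the Rubisco and Calvin cycle, 0 of 10 tested members were higher and 8 lower as deposited (median log2 difference -1.15). After rescaling, 2 were higher and 7 lower (median -0.59). Among the chlorophyll synthesis genes, 1 of 19 tested members was higher and 17 lower as deposited (median log2 difference -1.52). After rescaling, 1 was higher and 15 lower (median -1.03). GUN4, which stimulates magnesium chelatase, was at 0.7, 0.55 and 0.35 TPM in the mutant, against 50.3, 57.3 and 56.5 TPM in WT (log2 difference -5.19 as deposited and -4.77 rescaled), while HEMA2, a glutamyl-tRNA reductase of non-green tissue, averaged 41.9 ± 4.11 TPM in the mutant and 19.1 ± 0.457 TPM in WT (rescaled log2 difference 1.62) and was higher.

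Starvation and senescence lists held members in both directions, with larger shares higher than among all genes. Those shares were 24.1% higher and 58.7% lower as deposited, and 38.3% and 42.6% rescaled. Among the carbon starvation genes, 9 of 16 tested members were higher and 7 lower as deposited (median log2 difference 0.50). After rescaling, 9 were higher and 5 lower (median 1.04). Of the 16, 1 met the minimum of 1 TPM in 3 libraries only through the mutant libraries at 3 days, which bears on its direction. TPS11, of the trehalose phosphate synthase family, was at 64.8, 77.4 and 79.9 TPM in the mutant, against 4.67, 3.35 and 3.39 TPM in WT (log2 difference 3.97 as deposited and 4.44 rescaled), and DIN2, a dark-inducible glucosidase, averaged 13.5 TPM in the mutant and 0.153 TPM in WT (rescaled log2 difference 3.88). DIN4, of branched-chain amino acid breakdown, was lower, at 3.36 TPM in the mutant and 18.3 TPM in WT (rescaled log2 difference -1.66). Among the chlorophyll breakdown and senescence list, 9 of 17 tested members (18 listed) were higher and 5 lower as deposited (median log2 difference 0.25). After rescaling, 11 were higher and 5 lower (median 0.80). ORE1, a NAC activator of leaf senescence, averaged 22.6 ± 4.63 TPM in the mutant and 4.99 ± 1.88 TPM in WT (rescaled log2 difference 2.49), whereas WRKY53 averaged 0.133 TPM in the mutant and 3.06 TPM in WT (rescaled log2 difference -1.56).

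Genes of the splicing machinery, in which the targeted proteins act, were mostly higher in the mutant. Among the MOS4-associated complex and spliceosome core, without the targeted genes, 14 of 18 tested members were higher and 3 lower as deposited (median log2 difference 0.49). After rescaling, 16 were higher and 1 lower (median 1.05). STA1, a Prp6-like U5 snRNP protein needed in heat and cold, was at 404, 449 and 498 TPM in the mutant, against 104, 98.1 and 94.9 TPM in WT (log2 difference 2.17 ± 0.071 (SE), adjusted p = 1.15e-10; 2.72 after rescaling). Of the direct partners in the complex, CDC5 averaged 133 TPM in the mutant and 71.01 TPM in WT (rescaled log2 difference 1.44), and MOS4 averaged 175 TPM in the mutant and 91.9 TPM in WT (rescaled log2 difference 1.48). MAC5A averaged 123 ± 9.46 TPM in the mutant and 45.1 ± 1.96 TPM in WT (rescaled log2 difference 1.97), while MAC5B averaged 58.2 ± 2.29 TPM in the mutant and 59.2 ± 2.83 TPM in WT (rescaled log2 difference 0.52) and did not pass the test as deposited. PRL1 averaged 52.5 ± 1.21 TPM in the mutant and 70.95 ± 0.9798 TPM in WT (rescaled log2 difference 0.12), lower as deposited and with its sign turned, not called, after rescaling. U2AF65A, which binds the polypyrimidine tract, averaged 81.02 ± 5.37 TPM in the mutant and 183 ± 4.01 TPM in WT (rescaled log2 difference -0.62). In the wider annotated spliceosome pathway, 187 of 338 tested members (380 listed) were higher and 107 lower as deposited (median log2 difference 0.28). After rescaling, 251 were higher and 52 lower (median 0.81). That annotated set also includes the targeted MAC3B and the ER chaperone BIP3. Beside these lists, 24.1% of all tested genes were higher and 58.7% lower as deposited, and 38.3% and 42.6% rescaled. The SR splicing factors changed sign with the scale: 5 of 20 tested members were higher and 10 lower as deposited (median log2 difference -0.20). After rescaling, 12 were higher and 3 lower (median 0.35).

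Most listed cell division and replication genes were lower, set beside 58.7% of all tested genes as deposited and 42.6% rescaled. Among that list, 2 of 26 tested members were higher and 22 lower as deposited (median log2 difference -1.17). After rescaling, 4 were higher and 20 lower (median -0.72). CYCD3;1, a D-type cyclin of dividing tissue, was at 2.11, 1.82 and 2.24 TPM in the mutant, against 42.6, 47.8 and 44.3 TPM in WT (log2 difference -3.91 as deposited and -3.42 rescaled). MCM5, of the replicative helicase, averaged 174 ± 1.15 TPM in the mutant and 1099 ± 152 TPM in WT (rescaled log2 difference -2.08), and TSO2, a ribonucleotide reductase subunit, averaged 3.26 TPM in the mutant and 33.2 TPM in WT (rescaled log2 difference -2.52). CDKB1;2 was the member furthest the other way, at 11.8 TPM in the mutant and 3.83 TPM in WT (rescaled log2 difference 1.88). The wider annotated DNA replication pathway lay nearer to the share of all genes. Of its 63 tested members (85 listed), 13 were higher and 39 lower as deposited (median log2 difference -0.69). Rescaled, 24 of them were higher and 29 lower (median -0.16). Among the genes known as microRNA targets, 6 of 46 tested members (48 listed) were higher and 35 lower as deposited (median log2 difference -0.98). After rescaling, 12 were higher and 30 lower (median -0.50). SPL2, a target of miR156, averaged 2.38 TPM in the mutant and 35.5 TPM in WT (rescaled log2 difference -2.95), and MYB33, a target of miR159, averaged 27.1 ± 1.499 TPM in the mutant and 14.02 ± 1.11 TPM in WT (rescaled log2 difference 1.43) and was higher. MicroRNA precursors were not analysed here.

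Abscisic acid and oxidative stress lists held members far apart in both directions. For all tested genes the shares were 24.1% higher and 58.7% lower as deposited, and 38.3% and 42.6% rescaled. Among the abscisic acid and dehydration genes, 13 of 33 tested members were higher and 14 lower as deposited (median log2 difference -0.10). After rescaling, 17 were higher and 11 lower (median 0.34). RD29A averaged 159 ± 3.6 TPM in the mutant and 25.97 ± 3.09 TPM in WT (rescaled log2 difference 3.12), whereas RD29B averaged 4.66 TPM in the mutant and 27.3 TPM in WT (rescaled log2 difference -1.81). ABA1, zeaxanthin epoxidase, averaged 8.44 ± 0.469 TPM in the mutant and 70.8 ± 6.998 TPM in WT (rescaled log2 difference -2.39). Among the oxidative stress list, 7 of 21 tested members were higher and 11 lower as deposited (median log2 difference -0.45). After rescaling, 10 were higher and 8 lower (median 0.042). CAT1 averaged 145 ± 12.2 TPM in the mutant and 41.3 ± 0.872 TPM in WT (rescaled log2 difference 2.33) and CAT3 averaged 298 ± 31.3 TPM in the mutant and 1737 ± 148 TPM in WT (rescaled log2 difference -1.98), so these catalases went opposite ways. The heat-inducible peroxidase APX2 averaged 49.6 ± 2.75 TPM in the mutant and 250.3 ± 2.89 TPM in WT (rescaled log2 difference -1.76).

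The medians of the clock, flowering and growth lists changed sign with the scale. All tested genes had 24.1% higher and 58.7% lower as deposited, and 38.3% and 42.6% rescaled. Among the circadian clock genes, 5 of 22 tested members were higher and 13 lower as deposited (median log2 difference -0.33). After rescaling, 10 were higher and 9 lower (median 0.18). GRP7, a clock-controlled RNA-binding protein, was at 268, 254 and 272 TPM in the mutant, against 1661, 1622 and 1366 TPM in WT (log2 difference -2.54 as deposited and -1.98 rescaled), and PRR3 averaged 0.457 TPM in the mutant and 16.8 TPM in WT (rescaled log2 difference -3.21). PRR5, a repressor expressed late in the day, averaged 45.6 ± 1.35 TPM in the mutant and 24.96 ± 2.79 TPM in WT (rescaled log2 difference 1.39) and was higher. Among the flowering time genes, 5 of 14 tested members (16 listed) were higher and 9 lower as deposited (median log2 difference -0.51). After rescaling, 6 were higher and 6 lower (median 0.015). MAF4, a repressor related to FLC, was at 66.4, 55.4 and 63.4 TPM in the mutant, against 14.01, 11.9 and 11.1 TPM in WT (log2 difference 2.24 as deposited and 2.76 rescaled), whereas the integrator SOC1 averaged 0.45 TPM in the mutant and 4.41 TPM in WT (rescaled log2 difference -1.54). Among the warm growth and auxin genes, 4 of 13 tested members were higher and 7 lower as deposited (median log2 difference -0.46). After rescaling, 4 were higher and 4 lower (median 0.05). PIF4, the factor that drives growth in warmth, averaged 5.18 TPM in the mutant and 19.7 TPM in WT (rescaled log2 difference -1.23), while the auxin synthesis gene YUC8 averaged 11.2 TPM in the mutant and 4.77 TPM in WT (rescaled log2 difference 1.55).

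RNA metabolism lists also turned on the scale. Shares of all tested genes were 24.1% higher and 58.7% lower as deposited, and 38.3% and 42.6% rescaled. Among the genes of RNA decay and m6A, 8 of 23 tested members were higher and 12 lower as deposited (median log2 difference -0.38). After rescaling, 13 were higher and 5 lower (median 0.16). DCP1, of the decapping complex, averaged 92.99 ± 5.98 TPM in the mutant and 40.4 ± 3.62 TPM in WT (rescaled log2 difference 1.73), and UPF1, the helicase of nonsense-mediated decay, averaged 35.2 ± 0.618 TPM in the mutant and 73.6 ± 1.93 TPM in WT (rescaled log2 difference -0.50). Among the microRNA and small RNA machinery, 7 of 20 tested members were higher and 10 lower as deposited (median log2 difference -0.15). After rescaling, 11 were higher and 6 lower (median 0.38). SE, which helps to cut microRNA precursors, averaged 103 ± 8.697 TPM in the mutant and 67.3 ± 0.4805 TPM in WT (rescaled log2 difference 1.16) and was higher, while AGO4, of RNA-directed DNA methylation, averaged 3.67 TPM in the mutant and 20.2 TPM in WT (rescaled log2 difference -1.69). Among the ribosome biogenesis genes, 1 of 13 tested members was higher and 10 lower as deposited (median log2 difference -0.42). After rescaling, 7 were higher and 4 lower (median 0.14). FIB2, a fibrillarin, averaged 21.5 ± 3.699 TPM in the mutant and 69.5 ± 2.56 TPM in WT (rescaled log2 difference -1.12), and the nucleolin NUC1 averaged 149.8 ± 2.004 TPM in the mutant and 402 ± 17.57 TPM in WT (rescaled log2 difference -0.86).

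The lists that follow stand beside 24.1% of all tested genes higher and 58.7% lower as deposited, and 38.3% and 42.6% rescaled. Among the hypoxia genes, 5 of 12 tested members were higher and 5 lower as deposited (median log2 difference -0.12). After rescaling, 6 were higher and 2 lower (median 0.34). HB1, a non-symbiotic haemoglobin, averaged 18.3 TPM in the mutant and 2.66 TPM in WT (rescaled log2 difference 2.84). Among the pattern-triggered immunity and camalexin genes, 5 of 14 tested members (15 listed) were higher and 6 lower as deposited (median log2 difference 0.13). After rescaling, 8 were higher and 3 lower (median 0.46). WRKY33, an activator of camalexin synthesis, was at 75.98, 64.5 and 58.5 TPM in the mutant, against 21.4, 18.7 and 18.4 TPM in WT (log2 difference 1.71 as deposited and 2.24 rescaled). Among the DNA damage response genes, 1 of 12 tested members was higher and 9 lower as deposited (median log2 difference -0.89). After rescaling, 3 were higher and 7 lower (median -0.39). NAC044, which delays the cell cycle after damage, averaged 18.9 ± 0.562 TPM in the mutant and 99.3 ± 4.08 TPM in WT (rescaled log2 difference -1.79). Among the iron genes, 2 of 15 tested members were higher and 6 lower as deposited (median log2 difference -0.24). After rescaling, 5 were higher and 3 lower (median -0.074). The 2 called higher as deposited, BHLH100 and IRT1, lost their calls with a pseudocount of 5 and in most fits without 1 library. The ferritin FER4 averaged 32.6 ± 1.37 TPM in the mutant and 94.8 ± 7.19 TPM in WT (rescaled log2 difference -0.96). Seed markers had only 4 of 12 members tested, with a summed level of 10.9 to 12.5 TPM over the 3 mutant libraries and 10.6 to 18.9 TPM over the 3 WT libraries (rescaled sums 13.4 ± 0.992 in the mutant and 10.8 ± 3.57 in WT).

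Several large families were read on both scales. Beside them, all tested genes had 24.1% higher and 58.7% lower as deposited, and 38.3% and 42.6% rescaled. Among the cytosolic ribosomal proteins, 86 of 220 tested members (237 listed) were higher and 94 lower as deposited (median log2 difference 0.0029). After rescaling, 149 were higher and 39 lower (median 0.55). Among the pentatricopeptide proteins of organelle RNA, 44 of 382 tested members (438 listed) were higher and 259 lower as deposited (median log2 difference -0.67). After rescaling, 111 were higher and 182 lower (median -0.25). Under quantile normalization their median was 0.16. Among the cytochromes P450, 25 of 171 tested members (250 listed) were higher and 126 lower as deposited (median log2 difference -1.004). After rescaling, 34 were higher and 114 lower (median -0.66). Of the 22462 tested genes, 659 met the minimum of 1 TPM in 3 libraries only through the mutant libraries at 3 days and 967 only through the WT libraries at 3 days. Among the tested transposable element genes these were 28 and 249 of 428, so no count of calls is given for them. Among the pentatricopeptide proteins they were 4 and 19, and among the cytochromes P450 3 and 5. In the flowering time and oxidative stress lists 1 member each passed only through the mutant libraries. In the senescence, abscisic acid, microRNA target and root marker lists 1 member each passed only through the WT libraries. The filter bears on the direction of such members. Over the 47 other lists and families compared under 7 scalings (6 for plastid and mitochondrial loci), the median was above 0 in every one for 12, below 0 in every one for 16, and changed sign for 19. Genes often used as a reference did not settle the scale: 5 of 12 tested members were higher and 5 lower as deposited (median log2 difference 0.032). After rescaling, 8 were higher and 0 lower (median 0.58). YLS8 averaged 794 ± 8.44 TPM in the mutant and 258 ± 7.74 TPM in WT (rescaled log2 difference 2.18), and PP2AA3 averaged 31.5 ± 2.38 TPM in the mutant and 49.9 ± 0.852 TPM in WT (rescaled log2 difference -0.11).

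**Figure D5:**
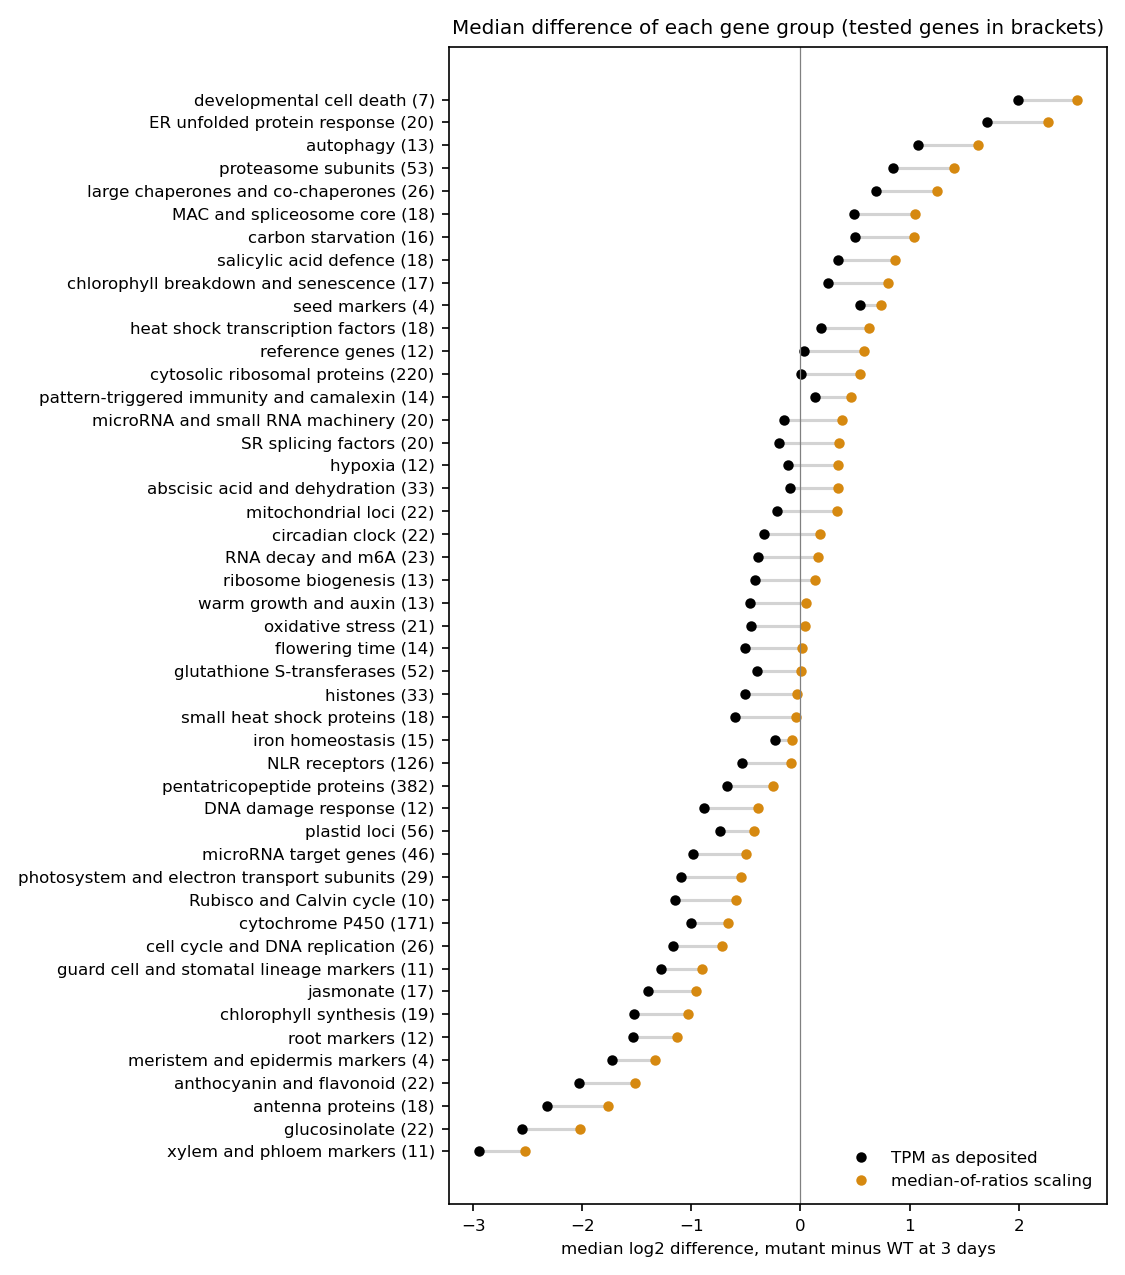
Median log2 difference (mutant minus WT at 3 days) of each gene list or family other than the targeted genes, ribosomal RNA loci and transposable element genes, with the number of tested genes in brackets, as deposited and after median-of-ratios scaling. Developmental cell death and ER unfolded protein response stand at the top of those plotted and xylem and phloem markers at the bottom on both scales.

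The deposited annotation assigns genes to pathways, and 113 of these had at least 20 tested genes. Their counts stand beside 24.1% of all tested genes higher and 58.7% lower as deposited, and 38.3% and 42.6% rescaled. Ordered by rescaled median, the proteasome pathway came first: 55 of 80 tested members (82 listed) were higher and 18 lower as deposited (median log2 difference 0.69). After rescaling, 66 were higher and 12 lower (median 1.23). It was followed by the spliceosome, given above, and by protein export, with a median log2 difference of 0.18 as deposited and 0.73 rescaled. The next were a set named for the viral life cycle, with 0.17 as deposited and 0.70 rescaled, and SNARE interactions in vesicular transport, with 0.15 as deposited and 0.66 rescaled. At the other end stood glycosaminoglycan degradation: 3 of 23 tested members (29 listed) were higher and 19 lower as deposited (median log2 difference -1.66). After rescaling, 5 were higher and 18 lower (median -1.18). Next to it were the annotated antenna proteins, with a median of -1.55 as deposited and -1.13 rescaled, and sesquiterpenoid and triterpenoid biosynthesis, with -1.43 as deposited and -1.06 rescaled. Other glycan degradation had a median of -1.33 as deposited and -0.93 rescaled, and brassinosteroid biosynthesis had -1.36 as deposited and -0.83 rescaled.

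A few loci were listed at 0 throughout one genotype. AT3G02790, annotated as a C2H2 zinc finger protein, was at 18.7, 12.6 and 48.3 TPM in the mutant, against 0, 0 and 0 TPM in WT. AT1G58983, annotated as a ribosomal protein S5 family member, was at 0, 0 and 0 TPM in the mutant, against 256, 285 and 174 TPM in WT. In all, 9 loci were at 0 in WT and at 5 TPM or more in every mutant library, and 29 the other way round. A 0 in an estimated table can be a failed estimate, above all for copies of near-identical sequence, so no fold is given.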

How the data were processed

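The authors deposited a table of TPM per gene; per the submitters' processing notes RSEM and TAIR10 were used, and per the labels' protocols the libraries were made from oligo(dT)-selected mRNA. Other steps are not stated. The deposited TPM were kept for genes at 1 TPM or more in at least 3 of the 12 libraries (22462 of 37825), and log2(TPM + 1) was fitted with limma 3.58.1 in R 4.3.3, with an intensity trend and 1 mean for each of the 4 groups, so that the groups share one estimate of the spread; adjusted p-values are Benjamini-Hochberg over all tested genes, with a threshold of 0.05. The fit was tested on simulated data. Rescaled values divide TPM by a median-of-ratios size factor, 0.845 to 0.898 for the mutant and 1.27 to 1.29 for WT at 3 days. The smallest exact permutation p with 3 against 3 libraries is 0.1, so single values were not tested alone. Gene symbols are from RefSeq or from the protein names in the table. The members and gene lists were chosen with earlier results of these data known. Named genes are the targeted pair, the 12 largest differences each way with a symbol, called on both scales, at 10 TPM or more and without overlap, the 6 most abundant per genotype, loci at 0 in 1 genotype, and the 2 largest called members of each list and direction; other list members were named for their role after their values were seen. Other scalings, pseudocounts, filters and fits, and the fit without each library, were tried.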

Additional observations from a re-analysis of the deposited data

Results flagged for a closer look

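The difference between mutant and WT at 3 days differed from that in controls for 17277 genes (76.9% of those tested) by the interaction term of the limma fit with Benjamini-Hochberg adjustment at 0.05. The 2 differences share no library, but they share the estimate of spread. Each value below is the log2 difference, mutant minus WT, at 3 days minus that in controls, as deposited and not rescaled. Size factors were 0.845 to 0.898 for the mutant and 1.27 to 1.29 for WT at 3 days. In controls they were 0.978 to 1.01 for the mutant and 0.929 to 0.939 for WT. Every value would therefore lie higher after rescaling, so the decreases would be smaller. As deposited, both targeted genes were further apart at 3 days, MAC3A by -1.38 and MAC3B by -0.99. In controls MAC3A was at 9.74 TPM in the mutant and 34.7 TPM in WT, and MAC3B at 10.4 TPM in the mutant and 72.6 TPM in WT.

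Among the genes with the largest increases, the value was 5.10 for AATP1, 4.78 for PP2-B11, 4.58 for TPS11, 3.91 for CYP71A23, 3.78 for PR1, 3.68 for SK8 and for DIN2, 3.51 for CEP1, 3.499 for NAC074, 3.23 for PP2-B1, 3.12 for ECT10 and 2.44 for BIP3. SK8 was at 0 in all control libraries, so its value depends on the pseudocount. Genes here and in the next paragraph were chosen for their difference at 3 days, which is part of each value. A large value of the same sign is thus partly built in by that choice and is no separate result.

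Among those with the largest decreases, the value was -6.83 for IPMI1, -6.49 for TLL1, -6.46 for CYP79F1, -6.25 for GSTU20, -5.91 for CYP83A1, -5.37 for GUN4, -5.35 for GASA6, -5.30 for UGT72E2, -4.97 for PME5, -4.86 for GER1, -4.83 for CYP81F4 and -4.78 for GER3. In controls IPMI1 was at 146 TPM in the mutant and 54.1 TPM in WT, TLL1 at 246 TPM in the mutant and 106 TPM in WT and CYP79F1 at 144 TPM in the mutant and 54.8 TPM in WT, so in those libraries the mutant was the higher one.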

How the results depend on the processing

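Scaling moved the counts most. Genes higher in the mutant numbered 8612 under median-of-ratios scaling, 9050 under quantile normalization and 8813 by percentile rank, and genes lower numbered 8468 under quantile normalization and 8220 by rank. Genes at least 2-fold apart numbered 3841 higher and 4692 lower under median-of-ratios scaling, 3450 and 3646 under quantile normalization, and 1197 and 3855 with a pseudocount of 5. The all-gene median was -0.073 under median-of-ratios scaling, 0.039 under quantile normalization (reversed), -0.46 with ribosomal RNA loci and AT3G06365 left out (chosen after seeing the data), -0.63 and -0.29 with pseudocounts of 0.1 and 5, -0.20 with no filter and -0.44 at a mean of at least 5 TPM; beyond the construction of each scaling the cause was not tested. Percentile rank gives no 2-fold count and no log2 median. Without each library in turn, 5194 to 5307 genes were higher and 12801 to 13116 lower, 1782 to 1890 and 7210 to 7484 at least 2-fold, the median was -0.53 to -0.49, and 16847 to 17256 genes passed the interaction test. With the replicate number as a block the counts were 5378 and 13152, but same-numbered libraries deviated together with correlations of only 0.0069, 0.0033 and 0.026, so the numbers give no pairing.

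Of 201 named genes in the fit, 166 kept their direction and side of the threshold under every alternative run. Many were named because they were called in the main fit, some also after rescaling, so part of that stability is built in. PSBR reversed to 0.53 under median-of-ratios scaling, 0.17 under quantile normalization, 0.0039 with ribosomal RNA loci left out, 0.036 with AT3G06365 left out too, 0.010 by rank (percentile points) and, without each library in turn, lay between -0.11 (without WT replicate 1) and 0.035 (without WT replicate 3). Under median-of-ratios scaling HSP17.6B reversed to 0.056, PRL1 to 0.12, ACT8 to 0.065 and LHCA2 to 0.23. Under quantile normalization and by rank in percentile points, PAD3 reversed to 0.086 and 1.26, the hypoxia genes HRA1 to 0.027 and 0.41, and LBD41 to 0.030 and 0.49. Under median-of-ratios scaling, quantile normalization and rank, NPR1 reversed to 0.48, 0.35 and 6.47, PAD4 to 0.31, 0.70 and 11.2, ATG5 to 0.41, 0.36 and 6.62, IRE1B to 0.43, 0.49 and 8.99, and MAC5B to 0.52, 0.034 and 0.37. MAC5B also reversed to 0.011 with ribosomal RNA loci left out, 0.0046 with organelle loci left out too, and 0.043 with ribosomal RNA loci and AT3G06365 left out, where NPR1 reversed to 0.011. Without each library in turn MAC5B lay between -0.062 and 0.0067 (0.0039 without WT replicate 2), BFN1 between -0.11 and 0.17, and PAD4 between -0.38 and 0.060. By rank 17 calls were lost without a change of sign: HSP70-4, TCTP, GASA1, LTP2, HSP17.6B, HSP17.8, HSP17.6II, HSP21, HSP23.6, HSP90.1, ROF2, RBCS2B, LHCA2, JAZ1, PR2, ALKBH9B and GAPC1. Rank leaves little room to move at the top of a library, where HSP70-4 moved by 0.12 and TCTP by -0.031 percentile points. PR2 moved by -6.23 and JAZ1 by 5.55 percentile points and were still not called. Leaving out a library ended calls of BHLH100, IRT1, LHCB4.3 and LHCA2. Depth is unknown, so what it limits cannot be given.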
